A study of Mus musculus with 12 samples.

Results

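The fetal liver genes Afp, H19, Dlk1 and Gpc3 and the hepatocyte genes Alb (albumin) and Ttr (transthyretin) were read in hepatocytes of anemic and control mouse pups, as 6 of the 32285 genes in the count tables. The genes were chosen by symbol, and all 6 were found. The livers came from C57BL/6 mice (C57BL6/J in the genotype label), 6 controls and 6 with phlebotomy-induced anemia, with 1 droplet-based scRNA-seq library per mouse and all libraries in the same labelled batch. Anemic pups lost 20 µL of blood per g of body weight every second day from day 2 to day 10 after birth, which aimed at a hematocrit of 20% to 24%. Controls were handled alike and received a needle stick without bleeding, all pups stayed with their dams, and livers were enzymatically dissociated on day 11 by the labels. Litters were divided between the groups, but no label ties a pup to its litter.

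Hepatocytes of the fetal liver secrete alpha-fetoprotein, the product of Afp, and largely stop after birth. H19 is an imprinted non-coding RNA and the host of miR-675, Dlk1 encodes a Notch-like surface protein of hepatoblasts, and Gpc3 encodes a heparan sulfate proteoglycan that restrains growth. All 4 are high in fetal liver, fall in the weeks after birth and can return in regeneration and liver cancer, whereas Alb and Ttr, which encodes the carrier of thyroxine and retinol-binding protein, stay high in the adult hepatocyte.

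Afp and Alb are neighbours and members of 1 gene family. On GRCm38 with the GENCODE M21 annotation, Alb (ENSMUSG00000029368) lies at chr5:90460897-90476602 on the plus strand, and Afp (ENSMUSG00000054932) follows at chr5:90490737-90508907 on the same strand, 14.1 kb further on. Their promoters are shown because both genes are read in the same cells below. The promoter set used here, with RefSeq starts (GRCm38.p6), held 4 of the 6 members. The 150 bases before the RefSeq start are printed from chr5:90490564-90490713 for Afp and chr5:90460720-90460869 for Alb, both on the plus strand. Capitals mark matches, on either strand, to the first part of an HNF1 site, to the TATA box and to the CCAAT box.

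Afp promoter: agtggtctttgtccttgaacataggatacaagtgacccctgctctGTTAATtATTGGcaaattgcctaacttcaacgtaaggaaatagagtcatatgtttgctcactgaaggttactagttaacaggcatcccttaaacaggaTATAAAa
Alb promoter: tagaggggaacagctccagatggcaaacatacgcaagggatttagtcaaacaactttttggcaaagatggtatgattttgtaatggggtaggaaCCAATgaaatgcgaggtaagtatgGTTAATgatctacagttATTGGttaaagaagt

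Both promoters held the first part of the HNF1 site, GTTAAT, which began 105 bases before the RefSeq start in Afp and 32 bases before it in Alb. The GENCODE starts given above lie 23 bases further on in Afp and 27 in Alb, so that the site began 128 and 59 bases before those. The bases between both starts, which are not printed, held no further match to the 3 motifs. Of 32851 mouse promoters, 6.43% held a match to these letters within 250 bases before the start. The TATA box, spelt TATAAA, was found in this window of Afp and in 12.4% of all promoters. The CCAAT box was found in both genes and in 33.8% of all promoters. A match describes the letters only. No capitals overlap between the motifs.

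H19 (ENSMUSG00000000031) is a long non-coding RNA gene at chr7:142575529-142578143 on the minus strand, and the mature miRNAs cut from it are shown because H19 is described at length below. Both lie inside the gene, at chr7:142577078-142577099 and chr7:142577112-142577133, and their seeds (bases 2 to 8, in capitals) differ. Droplet libraries do not count mature miRNAs.

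mmu-miR-675-3p: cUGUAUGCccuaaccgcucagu
mmu-miR-675-5p: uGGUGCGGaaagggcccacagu

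Dlk1 (ENSMUSG00000040856) is imprinted as well and lies at chr12:109452823-109463336 on the plus strand. Gpc3 (ENSMUSG00000055653) covers 342 kb of the X chromosome, chrX:52272426-52613950, on the minus strand.

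Of 207537 barcodes, 206146 passed the filters and fell into 63 clusters, and 15086 cells in 4 clusters were hepatocyte-like, 6847 from controls and 8239 from anemic mice (567 to 1901 cells and 1333444 to 3911670 UMIs per mouse). Libraries held 46252146 to 74545930 UMIs. A UMI is 1 captured mRNA molecule, and the ending -like means that a name rests on marker genes alone. The 20 hepatocyte markers, none of them at 0, summed to 77900 to 84800 counts per 1000000 UMIs (CPM) in controls and 80440 to 89720 CPM in anemic mice. Markers of other cells were also found in these sums. The 10 erythroid markers summed to 1398 to 7843 CPM in controls and 8844 to 20520 CPM in anemic mice, the 12 stellate markers to 543 to 897 CPM and 35.2 to 224 CPM, the 11 endothelial markers to 526 to 802 CPM and 106 to 309 CPM, and the 9 B cell markers to 305 to 681 CPM and 126 to 268 CPM. No marker of these 4 lists was at 0, no range of these 4 overlapped between the groups, and their part in the results below was not tested. In all, 5031 barcodes occurred in more than 1 library, and the pups were female in 4 of the control and 2 of the anemic libraries, as read from Xist and genes of the Y chromosome. P-values measure the spread between mice.

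The 4 hepatocyte-like clusters made up different parts of the class in the 2 groups, which decides how its sums can be read. Cluster 7, led by Cyp2b9, Apob, Abcb11 and Cps1, gave 34.9% ± 3.90 of the hepatocyte-like cells of control mice and 16.3% ± 3.41 of those of anemic mice (mean ± SD, n = 6 each), and 59.0% against 24.6% of their UMIs. Cluster 42, led by Gnmt, Cth, Uox and Tdo2, gave 9.86% ± 3.43 and 20.6% ± 5.46 of the cells. Clusters 9 (Apcs, Rbp4 and Apoc3) and 20 (Apcs among its leading genes) gave 19.7% and 35.6% of the control cells, and 22.3% and 40.7% of the anemic cells. These shares are a description and were not tested. Neither the members nor the genes of the lists below entered the clustering. Cluster 7 also had the highest median share of mitochondrial UMIs, 15.8% against 1.08% to 2.20% in the others, and the most cells called as doublets, 27.8% ± 9.30 in controls and 45.4% ± 22.8 in anemic mice. Leaving out called doublets kept 2483 of its 3711 cells and 13309 of the 15086 of the class. A mitochondrial limit of 10% lies below the median of this cluster. Both settings, used below, thus also change the mix of clusters.

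Across the 15 named classes, Afp, H19, Alb and Ttr were highest in hepatocyte-like cells, and Dlk1 and Gpc3 in mesothelial-like cells. In CPM of all UMIs, over 12 mice, hepatocyte-like cells held 1014 ± 708 of Afp, 4414 ± 760 of H19, 32490 ± 7747 of Alb and 24960 ± 4062 of Ttr. For each of these 4 genes the lowest hepatocyte-like value exceeded the highest value of the next class. Of all UMIs in the kept cells, hepatocyte-like cells gave 74.6% for Afp, 69.2% for H19, 74.6% for Alb and 70.7% for Ttr, but 22.2% for Gpc3.

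Dlk1 was nearly absent from hepatocyte-like cells. There it reached 24 UMIs in controls and 8 in anemic mice, 0 to 2.81 CPM in a control mouse (median 1.06) and 0 to 0.778 CPM in an anemic mouse (median 0.402). Mesothelial-like cells, the lining of the liver surface, held 322 ± 79.8 CPM of Dlk1 and the stellate-like class 104 ± 53.4 CPM, and the ranges of these 2 classes overlapped. Of the 5320 Dlk1 UMIs of the stellate-like class, 91.0% lay in 1 of its clusters, which was led by the fibroblast genes Mfap4, Dpt, Col1a1 and Lum. That cluster held 211 ± 82.4 CPM of Dlk1, and the rest of the class, 2 clusters with Colec11 and Lrat or Colec10 among their leading genes, held 13.2 ± 6.09 CPM. No other class had a mean above 1.60 CPM.

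Gpc3 stood at 1191 ± 175 CPM in mesothelial-like cells, at 162 ± 56.5 CPM in stellate-like cells and at 154 ± 25.4 CPM in hepatocyte-like cells. The ranges of the last 2 overlapped, and mesothelial-like cells lay above both. Next came cholangiocyte-like cells with 25.5 ± 13.8 CPM, below the other 3 classes in all mice. Within the stellate-like class, the cluster of fibroblast genes held 329 ± 45.3 CPM of Gpc3 and 90.4% of its 7902 UMIs, and the rest of the class held 22.8 ± 6.86 CPM.

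**Figure D1:**
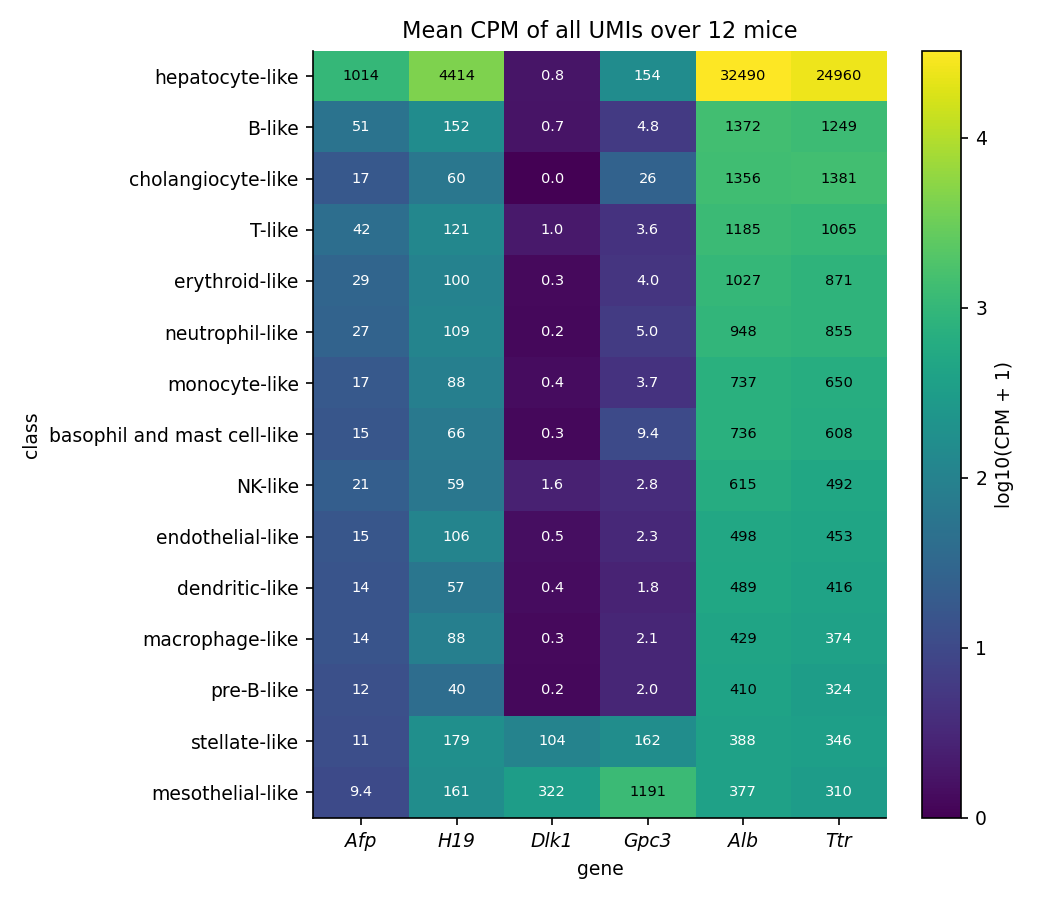
Mean CPM of all UMIs over 12 mice (number in each cell, colour on a log10 scale) for the 6 members (columns) in the 15 named classes (rows, ordered by Alb). Alb and Ttr are seen in every class, Afp and H19 peak in hepatocyte-like cells, and Dlk1 and Gpc3 peak in mesothelial-like cells.

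Alb and Ttr were counted in every class, and free RNA of broken cells is known to enter droplets. RNA from 1 source keeps its genes in 1 ratio, so the log2 ratio of each member to Alb was compared with that of hepatocyte-like cells of the same mouse. For Afp the mean difference ran from -1.25 in cholangiocyte-like cells, above hepatocyte-like cells in 1 of 12 mice, to 0.42 in B-like cells (10 of 12 mice). It was 0.37 in NK-like (11 of 12 mice), 0.10 in endothelial-like (8 of 12 mice) and 0.06 in stellate-like cells (5 of 12 mice). H19 exceeded it in all 12 mice in 4 classes, by 0.74 ± 0.48 in endothelial-like, 0.70 ± 0.30 in macrophage-like, 1.87 ± 0.79 in stellate-like and 1.95 ± 1.57 in mesothelial-like cells, whereas in B-like cells it was above in 1 of 12 mice. Gpc3 exceeded it in all 12 mice by 9.76 ± 1.12 in mesothelial-like and 6.60 ± 1.02 in stellate-like cells.

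The pattern of each member over the 15 classes was set against the 13955 genes with at least 10 CPM in some class, as a description over classes that share mice and free RNA. Alb and Ttr were most like each other and Ahsg (fetuin A) and Pzp, with Pearson's r from 0.995 to 0.998. Afp was closest to Fetub, Fgb (fibrinogen) and Fabp2 (r from 0.989 to 0.990), and H19 to Acot12, Marc1 and Gm11789 (0.970 to 0.984). Dlk1 was closest to Adamts19, Osr1 and Mrgprf (0.991 to 0.992), and Gpc3 to the complement genes C1s1 and Serping1 and to Fst (0.975 to 0.985). Between members, r was 0.824 for Dlk1 and Gpc3 and -0.27 for Dlk1 and Afp.

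The first comparison asked whether anemic pups kept more of the fetal genes in hepatocyte-like cells. UMIs were summed per mouse over the class and compared by edgeR's quasi-likelihood test with Benjamini-Hochberg (BH) adjustment over 11933 genes, of which 53.7% were called at an adjusted p under 0.05, 27.6% higher and 26.1% lower in anemia. Of the 6 members, 2 were called, H19 and Gpc3, both higher, and Dlk1 had too few UMIs to be tested. With 5 members tested, 2 calls are no result about the members as a list beside that background. In such sums, a change in RNA per cell cannot be told apart from a change in which cells of the class were captured. Without TMM, the factor by which edgeR evens out libraries, the median log2 fold change of all genes moved from -0.03 to -0.41, with 1535 genes called higher and 5595 lower in place of 3288 and 3117.

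H19 rose. Scaled by TMM, controls ran from 3513 to 5487 CPM with a median of 4148, and anemic mice from 4177 to 7507 CPM with a median of 6388. Of the anemic mice, 4 lay above every control and the others overlapped. The log2 fold change was 0.52 ± 0.13 (SE, n = 6 each, adjusted p = 0.00304). In 12 fits that each left out 1 mouse it stayed called, at 0.42 to 0.61. It was 0.22 (adjusted p = 0.251) with called doublets left out, and 0.14 (adjusted p = 0.347) without TMM factors.

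Gpc3 was called higher by a narrow margin. Its levels were 121 to 195 CPM in controls (median 155) and 129 to 237 CPM in anemic mice (median 202), and 4 anemic mice exceeded every control. The log2 fold change of 0.36 ± 0.13 (adjusted p = 0.0305) lost its call without control 1, 4 or 5 or without anemia 1, 2, 4, 5 or 6 (adjusted p from 0.0530 to 0.128). It was 0.11 (adjusted p = 0.619) with called doublets left out and turned to -0.03 without TMM factors.

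Afp varied more between mice than any other member that was tested. Controls ran from 406 to 2129 CPM (median 636) and anemic mice from 556 to 3703 CPM (median 1372), and the groups overlapped. In each group 1 mouse stood apart, control 6 with 2129 CPM and anemia 4 with 3703 CPM. The log2 fold change of 0.87 ± 0.41 did not pass (adjusted p = 0.0831). It was 1.38 (adjusted p = 0.00395) without control 6, 1.05 (adjusted p = 0.0322) without anemia 3 and 0.37 (adjusted p = 0.403) without anemia 4. With Y-linked expression as a covariate it was 1.27 ± 0.31 (adjusted p = 0.00271). The 4 female controls had 557 to 2129 CPM and the 2 female anemic mice 1331 and 3703 CPM. The 2 male controls had 406 and 495 CPM and the 4 male anemic mice 556 to 1436 CPM, so that the mean difference on the log2 scale was 1.28 among females and 1.17 among males.

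Alb and Ttr were not called. Ttr (ENSMUSG00000061808) lies at chr18:20665280-20674321 on the plus strand. Alb had 38290 to 41740 CPM in controls (median 39850) and 22130 to 42480 CPM in anemic mice (median 34820), and 4 anemic mice lay below every control. Its log2 fold change was -0.26 ± 0.13 (adjusted p = 0.102), and -0.37 (adjusted p = 0.0274) or -0.35 (adjusted p = 0.0453) without anemia 4 or 5. With called doublets left out it was -0.55 (adjusted p = 0.00332), and without TMM factors -0.65 (adjusted p = 0.000142). Ttr had 24130 to 29000 CPM in controls and 22320 to 42850 CPM in anemic mice with a median of 27660 in both groups, and a log2 fold change of 0.15 ± 0.14 (adjusted p = 0.382). It turned to -0.02 without anemia 4, -0.08 without called doublets and -0.25 without TMM factors. For both genes the anemic mice were more scattered than the controls (SD 7926 against 1243 CPM for Alb, and 7945 against 1791 CPM for Ttr). The lowest anemic values came from anemia 2 and 3, with 22130 and 26990 CPM of Alb and 23950 and 22320 CPM of Ttr. These mice gave 567 and 659 hepatocyte-like cells, the fewest of all mice, and the part of this in the scatter was not tested.

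**Figure D2:**
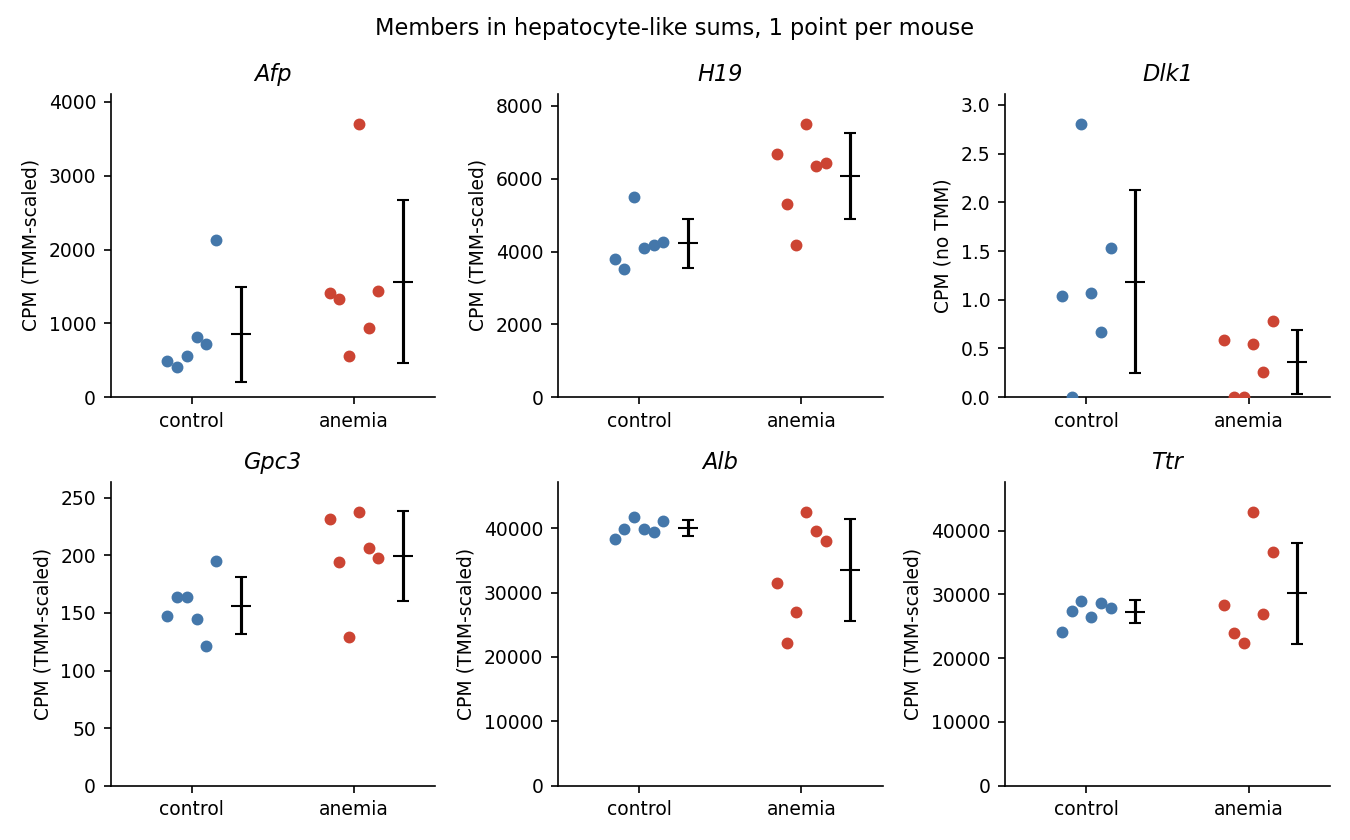
CPM (y axis, from 0) of the 6 members in hepatocyte-like cells of control and anemic mice, with 1 point per mouse and the mean ± SD (black) over 6 mice. H19 is higher in most anemic mice, Afp has 1 mouse far above the rest in each group, Alb is scattered downward in anemia, and Dlk1 stays under 3 CPM.

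Because the mix of clusters differed, the same test was run within each cluster, an alternative that was added once the mix had been seen. H19 and Gpc3 rose in cluster 7, Gpc3 rose in clusters 9 and 20 as well, and Ttr fell in cluster 42. Within a cluster far fewer genes were called, 7.46% of 10690 in cluster 7 (4.22% higher), 8.58% of 7143 in cluster 9 (5.05% higher), 5.9% of 6033 in cluster 20 (3.68% higher) and 4.96% of 5744 in cluster 42 (2.14% lower).

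In cluster 7 the 2 groups did not overlap for H19 or Gpc3, which held for 2.47% of the genes tested there in this direction. H19 had 4878 to 7825 CPM in controls (median 5876) and 8559 to 13590 CPM in anemic mice (median 10320). Its log2 fold change was 0.85 ± 0.12 (adjusted p = 8.88e-05) and remained at 0.77 to 0.94 without any 1 mouse. Gpc3 had 219 to 314 CPM in controls (median 259) and 327 to 752 CPM in anemic mice (median 511), a log2 fold change of 1.00 ± 0.15 (adjusted p = 0.000132). With called doublets left out of this cluster, the values were 0.63 (adjusted p = 0.00428) for H19 and 0.96 (adjusted p = 4.58e-05) for Gpc3. In the same cluster the stellate markers summed to 815 to 1457 CPM in controls and 77.7 to 848 CPM in anemic mice, the erythroid markers to 370 to 6156 CPM and 1014 to 9155 CPM, the endothelial markers to 736 to 1266 CPM and 188 to 807 CPM, and the B cell markers, whose ranges did not overlap, to 384 to 512 CPM and 139 to 352 CPM, and their part in these results was not tested.

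Gpc3 was lower in level in the other clusters and rose in 2 of them. In cluster 9 it had 42.9 to 90.4 CPM in controls and 78.1 to 189 CPM in anemic mice, with 5 anemic mice above every control (0.74 ± 0.19, adjusted p = 0.0165). In cluster 20 it had 48.3 to 87.0 CPM and 62.3 to 160 CPM, again with 5 above every control (0.87 ± 0.20, adjusted p = 0.0138). Both stayed called without any 1 mouse. The differences from its effect in cluster 7, -0.19 ± 0.17 and 0.0015 ± 0.11, did not pass (adjusted p = 0.700 and 1). Cluster 42 had too few UMIs of Gpc3 for a test. The erythroid markers summed to 4030 to 20170 CPM in controls and 21190 to 46130 CPM in anemic mice in cluster 20, with no overlap, to 1339 to 3949 CPM and 2805 to 16780 CPM in cluster 9, and to 769 to 3259 CPM and 2635 to 17460 CPM in cluster 42, and their part in the results of these clusters was not tested.

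H19 did not pass outside cluster 7, with log2 fold changes of 0.36 ± 0.14 in cluster 9, 0.43 ± 0.16 in cluster 20 and 0.48 ± 0.17 in cluster 42 (adjusted p = 0.145, 0.123 and 0.122). Without anemia 3 it was called in these 3 clusters as well (adjusted p = 0.0359, 0.0123 and 0.00835), and also without control 3 in cluster 9 (0.0443) or anemia 2 in cluster 42 (0.0473). The difference between its effects in clusters 9 and 7 was -0.46 ± 0.13, and it did not pass either (adjusted p = 0.0661).

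Ttr fell in cluster 42, and its estimate was below 0 in each of the other clusters, in contrast to the whole class. In cluster 42 all 6 anemic mice, at 10280 to 16620 CPM, lay below the controls at 17090 to 22210 CPM, which held for 1.32% of the genes tested there in this direction (-0.62 ± 0.12, adjusted p = 0.00198). The values were -0.37 ± 0.13 in cluster 9, -0.26 ± 0.11 in cluster 7 and -0.25 ± 0.18 in cluster 20, none of them called (adjusted p = 0.0774, 0.188 and 0.490), although cluster 9 was called without anemia 4 (adjusted p = 0.0109). Alb ran from -0.34 in cluster 42 to 0.01 in cluster 7 and Afp from -0.06 in cluster 42 to 0.86 in cluster 20, and neither was called in any cluster. Afp turned to -0.09 in cluster 7 without anemia 4, and it was called in cluster 9 without control 6 (1.16, adjusted p = 0.0221).

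The clusters themselves differed in level. Over 12 mice, Alb ran from 3993 ± 1390 CPM of all UMIs in cluster 42 to 44470 ± 3877 CPM in cluster 7, and Ttr from 14170 ± 3907 CPM in cluster 42 to 40380 ± 8412 CPM in cluster 9. Gpc3 was at 312 ± 127 CPM in cluster 7 and at 9.10 ± 4.26 CPM in cluster 42, and Afp at 125 ± 54.0 CPM in cluster 42 and at 1469 ± 983 CPM in cluster 20. H19 ran from 2806 ± 553 CPM in cluster 20 to 6638 ± 2059 CPM in cluster 7. H19, Gpc3 and Alb thus had their highest mean in the cluster that gave fewer of the anemic cells.

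**Figure D3:**
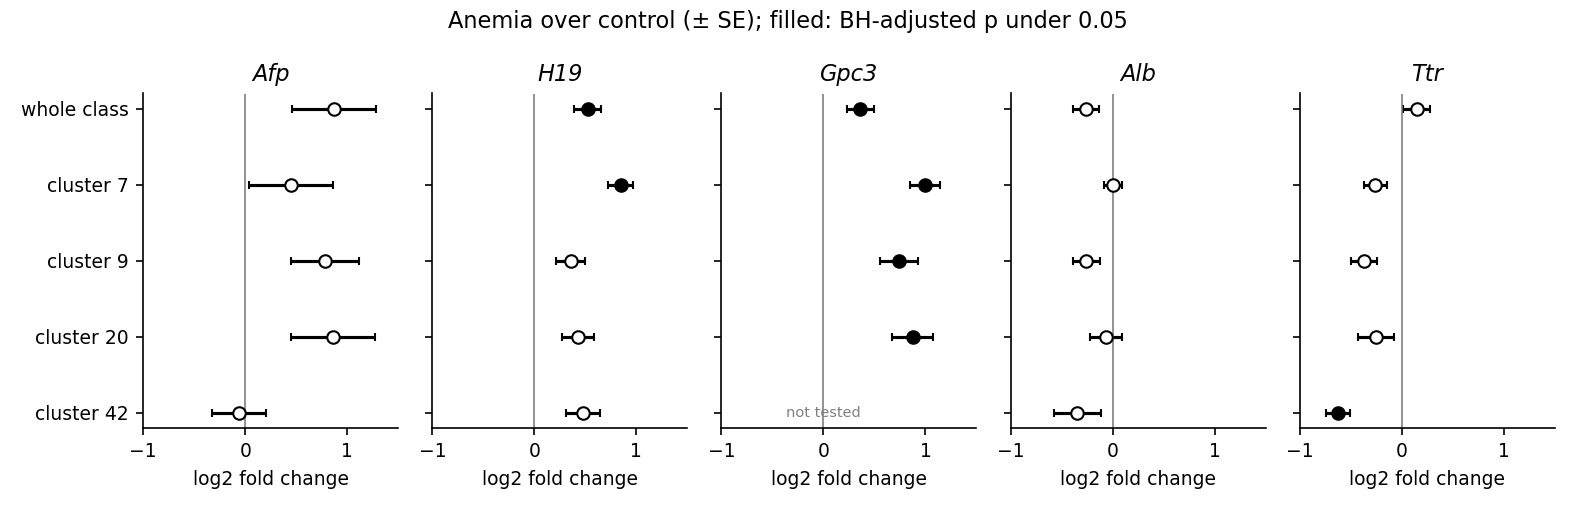
Log2 fold change of anemia over control (x axis, ± SE) for 5 members in the whole hepatocyte-like class and in each of its 4 clusters, with filled points where the adjusted p was under 0.05. Gpc3 lies at 0.36 in the class and at 0.74 to 1.00 in clusters 7, 9 and 20, and Ttr lies above 0 in the class and below 0 in every cluster.

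Ratios of 2 genes within a mouse need no scaling to other genes, and 9 of them were compared by an exact two-sided permutation test over the 12 mice, whose smallest p is 0.00216, with BH adjustment over the 9. The ratios of H19 and of Gpc3 to Alb rose. The log2 ratio of H19 to Alb was -3.26 ± 0.19 in controls and -2.45 ± 0.25 in anemic mice (SD), higher by 0.81 and above every control in 6 of 6 anemic mice (exact permutation p = 0.00216, adjusted p = 0.00974). Gpc3 to Alb went from -8.02 ± 0.20 to -7.38 ± 0.34, by 0.64 and again in 6 of 6 mice (exact permutation p = 0.00216, adjusted p = 0.00974). Such a ratio also moves with Alb. In CPM of all UMIs, the mean of Alb was 39000 in controls and 25970 in anemic mice. The means of H19 were 4103 and 4725, and those of Gpc3 152 and 155. How many of all genes separate the groups in the same way relative to Alb was not counted, so 6 of 6 is a description.

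The ratio of Afp to Alb was -5.80 ± 0.83 in controls and -4.63 ± 0.79 in anemic mice, and the difference of 1.17, with 2 of 6 anemic mice above every control, did not pass the adjustment (exact permutation p = 0.0390, adjusted p = 0.0701). It passed without control 6 (1.47, adjusted p = 0.0234), with called doublets left out (1.31, adjusted p = 0.0390) and by the exact Mann-Whitney test (adjusted p = 0.0468). Relative to Ttr, H19 was higher by 0.40 in anemia (exact permutation p = 0.00866, adjusted p = 0.0195), Gpc3 by 0.23 (adjusted p = 0.198) and Afp by 0.76 (adjusted p = 0.159). With called doublets left out, H19 to Ttr was 0.31 and lost its call (adjusted p = 0.146), and at a mitochondrial share of no more than 10% it was 0.72 (adjusted p = 0.00649). At that limit Gpc3 to Ttr was 0.59 and called (adjusted p = 0.0292). In the class without that limit, Afp to Ttr was called without control 6 (1.07, adjusted p = 0.0234). The ratios of Dlk1 rest on 32 UMIs and differed by -0.36 to Alb and -0.77 to Ttr (adjusted p = 0.537 and 0.209). Without control 2 they were -0.79 (adjusted p = 0.0519) and -1.20, the latter called (adjusted p = 0.0195), and without control 3 they were -0.07 and -0.48 (adjusted p = 0.916 and 0.416).

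Within single clusters the ratios of H19 and Gpc3 rose as well, and that of Ttr to Alb had the other sign. In each of clusters 7, 9 and 20, the ratio of Gpc3 to Alb was above every control in 6 of 6 anemic mice, by 0.98, 0.97 and 0.89 (adjusted p = 0.00487, 0.00487 and 0.00649 by exact permutation). The share of all genes that separate so relative to Alb was not counted here either. H19 to Alb rose in all 4 clusters, by 0.85 in cluster 7, 0.63 in cluster 9, 0.49 in cluster 20 and 0.91 in cluster 42 (adjusted p = 0.00487, 0.00487, 0.00974 and 0.0390 by exact permutation). Relative to Ttr, Gpc3 was called in clusters 7, 9 and 20, by 1.25, 1.08 and 1.10 (adjusted p = 0.00487, 0.00487 and 0.00649 by exact permutation), and not in cluster 42 (0.94, adjusted p = 0.149). H19 to Ttr was called in all 4 clusters, by 0.69 to 1.12 (adjusted p from 0.00487 to 0.0195), and Afp to Ttr in cluster 9 alone (1.16, adjusted p = 0.0351). These calls held with doublets left out of the clusters. Ttr to Alb was higher by 0.40 in the class (exact permutation p = 0.00866, adjusted p = 0.0195) but lower in each cluster, by -0.27 in cluster 7 (exact permutation, adjusted p = 0.0195), -0.11 in cluster 9, -0.21 in cluster 20 and -0.14 in cluster 42 (adjusted p = 0.359, 0.0682 and 0.632). At a mitochondrial share of no more than 10%, the difference in the class was 0.081 and lost its call (adjusted p = 0.548).

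**Figure D4:**
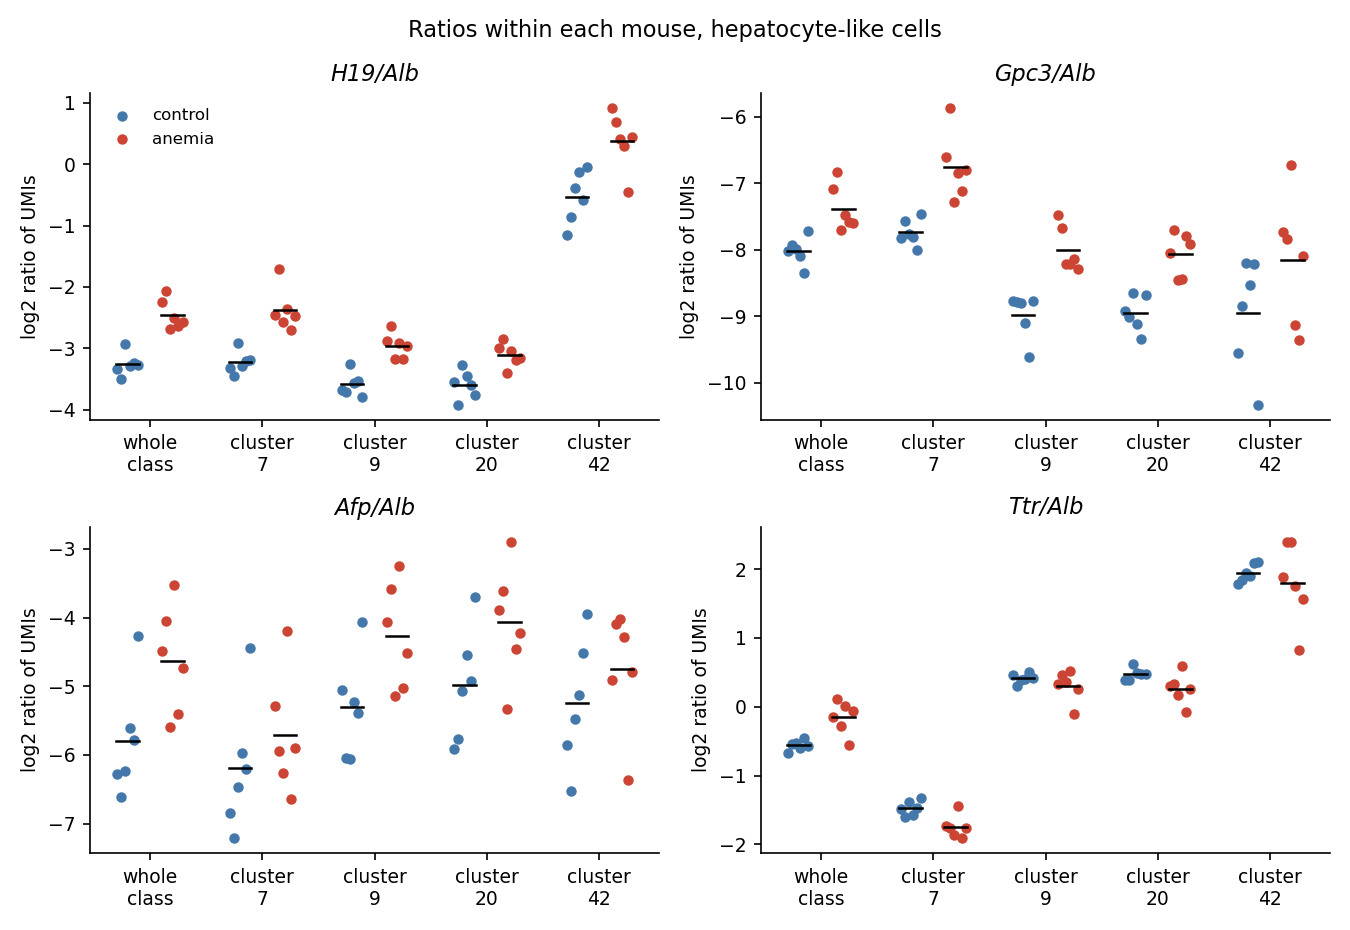
Log2 ratio of summed UMIs (y axis, 0.5 added to each sum) of H19, Gpc3, Afp and Ttr to Alb in the whole hepatocyte-like class and in its clusters, with 1 point per mouse and a line at the mean of each group. H19 shifts upward in the class and in all clusters, Gpc3 in the class and in clusters 7, 9 and 20, and Ttr to Alb rises in the class while the mean falls in every cluster.

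To see how widely the RNAs were spread over cells, each cell was thinned to 1000 UMIs, which left out 4912 shallower cells and kept 4645 control and 5529 anemic cells. Of those left out, 3851 were from cluster 20, which kept 1945 of its 5796 cells, so the shares describe mostly the other clusters. H19 was found in 84.7% ± 3.44 of the hepatocyte-like cells of controls and 87.6% ± 5.59 of those of anemic mice (SD, n = 6), against 11.1% and 9.57% of the B-like cells, thinned alike, which serve as the level of free RNA. Afp was found in 28.1% ± 11.3 and 31.5% ± 14.0 against 3.82% and 3.39% in B-like cells. Gpc3 was found in 12.1% ± 1.87 and 11.5% ± 2.31 against 0.441% and 0.527%. Dlk1, in 0.122% ± 0.0721 and 0.0296% ± 0.0458, was near the 0.0791% and 0.0422% of B-like cells, and this is no sign of expression. None of the 4 passed in the exact two-sided permutation test (adjusted p = 0.576 for H19, 0.649 for Afp, 0.649 for Gpc3 and 0.0952 for Dlk1). Without control 2, the difference for Dlk1 was -0.117 percentage points and passed (adjusted p = 0.0260). Without thinning, at a median of 1460 UMIs per hepatocyte-like cell, Gpc3 was found in 22.1% and 18.4%, H19 in 86.0% and 88.5%, Afp in 38.1% and 39.4%, and Dlk1 in 0.225% and 0.0678%.

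In cluster 7 alone, the share of cells with Gpc3 rose from 18.0% ± 4.84 to 30.6% ± 4.14 (exact permutation p = 0.00433, adjusted p = 0.0173), and that with H19 went from 87.2% to 91.0% (adjusted p = 0.0779). The share with Gpc3 did not pass in cluster 9 (6.35% and 8.95%), 20 (5.42% and 7.9%) or 42 (0.698% and 1.29%). There the exact permutation test gave adjusted p = 0.41, 0.514 and 0.678. Alb was found in 98.9% ± 0.295 of the hepatocyte-like cells of controls and 95.7% ± 3.57 of those of anemic mice, and Ttr in 99.2% and 99.0%. In B-like cells the share with Alb, taken as free RNA, was 67.1% ± 4.54 in controls and 42.3% ± 20.0 in anemic mice.

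Outside hepatocytes, Gpc3 was called higher in the sums of the stellate-like class, but in neither of its parts, the cluster of fibroblast genes and the rest. In the whole class it ran from 107 to 217 CPM in controls (median 116) and from 179 to 302 CPM in anemic mice (median 234), with 4 anemic mice above every control. The log2 fold change was 0.83 ± 0.17 (adjusted p = 0.00410), where 14.6% of 15377 genes were called (7.69% higher and 6.95% lower), and it stayed called without any 1 mouse. It exceeded that of the hepatocyte-like class by 0.48 ± 0.20 (adjusted p = 0.0498 for the difference, a test that called 47.8% of 11430 genes). H19 at 0.74 ± 0.25 (adjusted p = 0.0579) and Dlk1 at 0.69 ± 0.32 (adjusted p = 0.164) did not pass in the same class. Control 3 was the highest control for each of these 3 genes, and without it H19 (1.00, adjusted p = 0.00268) and Dlk1 (1.08, adjusted p = 0.00611) were called. H19 was called also without anemia 2 (adjusted p = 0.0388).

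The cluster of fibroblast genes holds 1401 of 3350 control cells and 1767 of 2529 anemic cells of the stellate-like class. Within it the values of Gpc3 and Dlk1 were close to 0, and that of H19 was above 0 but not called. Gpc3 had 312 to 461 CPM in controls and 291 to 449 CPM in anemic mice (0.10 ± 0.12, adjusted p = 0.852), Dlk1 -0.01 ± 0.26 (adjusted p = 0.999) and H19 0.32 ± 0.24 (adjusted p = 0.737), with 0.439% of 13214 genes called. In the rest of the class, a split added after seeing the data, the estimates of Gpc3 and Dlk1 were below 0. Gpc3, with 563 UMIs in controls and 192 in anemic mice, had 20.4 to 36.3 CPM in controls and 11.4 to 32.6 CPM in anemic mice (-0.24 ± 0.21, adjusted p = 0.595). Dlk1 had -0.56 ± 0.23 (adjusted p = 0.184) and H19 0.49 ± 0.24 (adjusted p = 0.261), with 6.35% of 13595 genes called. The cluster of fibroblast genes held most of the Gpc3 of the class and gave more of the anemic than of the control cells, so the rise in the whole class cannot be told apart from this change of mixture.

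In mesothelial-like cells, the class with most Dlk1 and Gpc3 per UMI, none of the 3 genes was called, with 0.595% of 10748 genes called. Dlk1 had 283 to 519 CPM in controls (median 396) and 243 to 416 CPM in anemic mice (median 334), a log2 fold change of -0.28 ± 0.17 (adjusted p = 0.594). Gpc3 had 1064 to 1516 CPM and 1213 to 1892 CPM (0.15 ± 0.13, adjusted p = 0.745), and H19 0.27 ± 0.27 (adjusted p = 0.795). A mouse gave 27 to 124 of these cells. In endothelial-like cells H19 was at 104 ± 44.7 and 133 ± 61.7 CPM (0.37 ± 0.31, adjusted p = 0.447), Gpc3 had means of 2.45 and 2.67 CPM and Dlk1 of 0.463 and 0.548 CPM, and none of the 3 was called where 17.8% of 16954 genes were.

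Afp, Alb and Ttr in these classes were not told apart from free RNA. Differences between classes in the effect of anemia were called for 50% of 11620 genes between endothelial-like and hepatocyte-like cells, 47.8% between stellate-like and hepatocyte-like cells and 34.3% of 9735 between mesothelial-like and hepatocyte-like cells. The 6 called of 15 differences for the members are thus no result about the members. Ttr was called lower in stellate-like cells (-0.92 ± 0.28, adjusted p = 0.0373). The estimate for Ttr was lower in endothelial-like than in hepatocyte-like cells by -1.52 ± 0.33 (adjusted p = 0.000696), in stellate-like cells by -1.16 ± 0.26 (adjusted p = 0.00111) and in mesothelial-like cells by -1.47 ± 0.39 (adjusted p = 0.00663). For Alb and Afp it was lower in endothelial-like cells by -0.89 ± 0.31 (adjusted p = 0.0234) and -0.97 ± 0.26 (adjusted p = 0.00396).

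Other genes of liver maturation were read from 5 lists, in the hepatocyte-like class and in its clusters. Single genes are given for the class and cluster 7 unless stated. Of all genes, 8.58% were called in cluster 9, 5.9% in cluster 20 and 4.96% in cluster 42, both directions together. Among 18 other imprinted and oncofetal growth genes, 14 were tested in the class, and 7 fell and none rose, where 26.1% of all genes were called lower and 27.6% higher, with a median log2 fold change of -0.37 against -0.03 over all genes. Meg3, the non-coding RNA of the imprinted domain that also holds Dlk1, fell from 94.2 ± 24.2 to 14.2 ± 4.74 CPM (-2.69 ± 0.20, adjusted p = 3.02e-08), and Rian of the same domain by 2.07 on the log2 scale (adjusted p = 1.43e-05). Mest and Mdk (midkine, a growth factor) fell from 39.3 to 20.3 and from 6.94 to 1.15 CPM, and Hmga2 and Plagl1 by 2.15 and 1.46 on the log2 scale.

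In cluster 7, where 3.25% of all genes were called lower and 4.22% higher, 5 of the 14 genes of this list fell, Meg3 (-1.87), Rian (-1.44), Mdk (-2.60) and Mest (-0.60) among them, and Igf2bp3 rose by 0.37 (adjusted p = 0.0370). Igf2, the growth factor imprinted next to H19, went from 1115 to 1197 CPM in the class (0.10, adjusted p = 0.675) and from 1633 to 2283 CPM in cluster 7 (0.49, adjusted p = 0.0801). H19 thus rose in cluster 7 while 5 of the 6 called genes of this list fell there. The summed stellate markers had a lower mean in anemia in the same sums, with ranges as given above, and their part was not tested. In each of clusters 9, 20 and 42, 1 gene of this list fell and none rose, of 8, 8 and 7 tested.

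Genes of the mature hepatocyte were the list with most calls. Of 35 tested, 19 rose and 8 fell in the class (median 0.39), where 27.6% of all genes were called higher and 26.1% lower, so that the 8 that fell are no more than the background. Of 34 tested in cluster 7, 16 rose and 5 fell (median 0.40 against -0.01 over all genes), where 4.22% and 3.25% of all genes were called. The medians were lower in the other clusters. Cluster 9 gave 9 higher and 6 lower of 34 (median 0.19). Cluster 20 gave 7 and 4 of 34 (0.07), and cluster 42 gave 7 and 4 of 32 (0.08). The 8 that fell included Cyp2e1 (-1.39, adjusted p = 9.36e-07, and -1.46 in cluster 7), an enzyme of xenobiotic oxidation, which was named after its values were seen. Arg1 and Ass1 of the urea cycle rose from 265 ± 51.6 to 893 ± 110 CPM (1.75, adjusted p = 1.87e-08) and from 1297 ± 363 to 4104 ± 529 CPM (1.66, adjusted p = 3.17e-07), and in cluster 7 by 1.62 and 1.09. Bhmt, a methyl transferase of methionine synthesis, Baat of bile acid conjugation and the periportal Cyp2f2 rose by 1.40, 2.06 and 2.17 on the log2 scale in the class and by 0.86, 1.51 and 2.70 in cluster 7.

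Of 12 tested genes of fetal and neonatal liver enzymes and markers, 6 rose and none fell in the class, and 3 of 10 rose in cluster 7, against 27.6% and 4.22% of all genes called higher. Cluster 9 gave 3 of 10 higher, cluster 20 gave 2 of 7 and cluster 42 gave 1 of 8, with none lower. Aldoa, the aldolase of fetal liver and muscle, rose from 90.9 ± 12.2 to 313 ± 87.2 CPM in the class (1.78, adjusted p = 1.07e-07) and by 0.72 in cluster 7. Erythroid cells also express it. Their summed markers were higher in the class without overlap, and in cluster 7 their ranges overlapped (370 to 6156 and 1014 to 9155 CPM). Their part in the rise of Aldoa was not tested. Spink1, a trypsin inhibitor, rose from 33.6 ± 17.0 to 175 ± 95.2 CPM (2.38, adjusted p = 8.28e-06) and Tff3, a trefoil peptide, from 2.00 ± 0.65 to 24.7 ± 19.6 CPM (3.50, adjusted p = 0.000117), and in cluster 7 by 2.59 and 4.38. The cholangiocyte markers summed to 75.4 to 184 CPM in controls and 60.7 to 127 CPM in anemic mice in the class, and to 106 to 317 CPM and 178 to 547 CPM in cluster 7, and their part in these results was not tested. Ldhb, Akr1b7 and Aldoc rose by 1.21, 0.77 and 0.67 in the class.

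Of 12 plasma carriers beside Alb, Ttr and Afp, 4 were called higher and 4 lower in the class, shares near the 27.6% and 26.1% of all genes, and 3 and 2 in cluster 7, against 4.22% and 3.25%. Cluster 9 gave 1 higher and 3 lower of 12, cluster 20 gave 1 and 2 of 12, and cluster 42 gave 0 and 3 of 11. Their medians were -0.224, 0.004 and -0.218, against 0.128 in cluster 7. Trf (transferrin) rose from 24600 ± 1324 to 38330 ± 5615 CPM (0.64, adjusted p = 3.41e-05), Rbp4, which travels bound to transthyretin, from 9480 ± 603 to 14670 ± 1132 CPM (0.63, adjusted p = 7.68e-06), and Azgp1 by 0.64. Serpina6, the corticosteroid-binding globulin, fell from 242 ± 62.2 to 60.0 ± 25.5 CPM (-1.96, adjusted p = 5.30e-06), Igfals by 0.88 and Afm, the third gene in the row Alb, Afp and Afm on chromosome 5, by 0.55. In cluster 7, Trf (0.44, adjusted p = 0.000592), Azgp1 (0.62) and Serpina6 (-1.68, adjusted p = 1.13e-05) kept the call and Rbp4 (-0.06) and Afm (-0.18) did not.

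Regulators of Afp, Alb and hepatocyte identity gave 3 of 21 higher and 6 lower in the class, no more than about the 27.6% and 26.1% of all genes, and 5 higher and none lower in cluster 7, against 4.22% and 3.25%. Cluster 9 gave 1 higher and 1 lower of 18, cluster 20 gave 0 and 1 of 15, and cluster 42 gave 0 and 3 of 17. Their medians were -0.175, -0.202 and -0.23, against 0.157 in cluster 7. Zbtb20 and Zhx2, repressors of Afp after birth, fell from 543 ± 55.5 to 282 ± 69.4 CPM (-0.94, adjusted p = 4.02e-05) and from 19.6 ± 2.90 to 10.7 ± 2.88 CPM (-0.86, adjusted p = 0.000297) in the class. In cluster 7 they had -0.09 (adjusted p = 0.771) and -0.39 (adjusted p = 0.248). Nr0b2, the bile acid-induced corepressor SHP, rose by 1.53 in the class and 1.02 in cluster 7 (adjusted p = 2.70e-07 and 0.000722). Cebpb rose by 1.19, and Nfib and Prox1 fell by 0.76 and 0.73, in the class, and none of these 3 was called in cluster 7. Nfib and Zbtb20 were called lower in cluster 42 (-0.68 and -0.91, adjusted p = 0.00731 and 0.0124).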

How the data were processed

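Livers of 12 pups gave 1 10x library each. The authors aligned the reads to mm10 with Cell Ranger (7.0.0 per the file headers) and deposited filtered matrices of raw UMI counts per gene and cell. The labels and the methods name different versions of the 3' kit, and the annotation version is not given in the sources used here. Groups came from the labels. Cells were kept by the limits of the study's methods (500 to 50000 UMIs, and a mitochondrial share of up to 50%), and no integration was applied. Cells were clustered with scanpy 1.11.5 (2000 variable genes without the members and listed genes, 20 principal components, 20 neighbours, Leiden resolution 2) and clusters were named from markers. Of the 63 clusters, 12 with 28192 cells stayed unnamed. The study lists the cells it kept per library, and those numbers are not repeated here. Doublets were scored against simulated pairs of cells, 10.65% to 15.75% of a library was called, and called cells were kept except where stated.

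UMIs were summed per mouse and class. Genes averaging 5 UMIs or more per sum, without mitochondrial and ribosomal protein genes, were tested with edgeR 4.0.16 (TMM, quasi-likelihood test, BH adjustment over all tested genes, called under 0.05) in R 4.3.3. In the edgeR comparisons, gene levels are CPM of the tested genes, scaled by TMM. Marker sums are CPM of all UMIs. The scales differ, as for Alb in anemic mice of cluster 7, with means of 55720 CPM and 42860 CPM of all UMIs. On simulated counts of 11798 genes, the test for hepatocyte-like sums recovered 79 of 97 genes changed by 1 and 97 of 98 changed by 2 on the log2 scale, with 11 false calls. The simulated spread followed the trend over genes and few genes changed, whereas 53.7% were called in the data. These numbers therefore do not describe how the test behaves on the members. Ratios and shares were compared by exact permutation over mice, and intervals from counts would cover counting error only. Library profiles correlated at 0.828 to 0.976, and no libraries were identical. The members and the gene lists were chosen with earlier results of these data known. From each list the text names the genes called in hepatocyte-like sums, up to 6 by smallest p, and others are said to be so chosen or given as comparisons. Some genes are not reported here. Alternatives were DESeq2 1.42.0, a joint limma 3.58.1 voom model, other filters, scalings and cell sets, sex as a covariate, a replicate block and leaving out each mouse.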

Additional observations from a re-analysis of the deposited data

Results flagged for a closer look

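In 92 groups of 6 mice, 14 had a mouse whose gap to the next was large against the range of its group, the highest mouse each time. The limit used is passed by about 1 in 20 separate groups of normally spread values. These groups share mice and cells and most hold CPM without a log, so the count cannot be set against that rate. Afp stood apart in control 6, with 2129 CPM in hepatocyte-like cells (next 816.5), 2543 CPM in cluster 7 and 2275 CPM in cluster 9, and with 50.2% of hepatocyte-like cells (next 29.9%). It also stood apart in anemia 4, with 3703 CPM in the class (next 1436), 3239 CPM in cluster 7 and 252.3 CPM in cluster 42. H19 stood apart in control 3, with 5487 CPM in hepatocyte-like cells (next 4253), 4247 CPM in cluster 9, 283.1 CPM in stellate-like and 190.3 CPM in endothelial-like cells, and in control 1 with 321.1 CPM in mesothelial-like cells. In stellate-like cells control 3 was also far above the other controls for Dlk1 (200.8 CPM, next 106.7) and Gpc3 (216.8 CPM, next 125.2).

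The effect of anemia differed between classes for 6 of 15 differences tested by edgeR, which is no result about the members, since 50%, 47.8% and 34.3% of all genes were called for the differences of endothelial-like, stellate-like and mesothelial-like from hepatocyte-like cells. Alb, Afp and Ttr outside hepatocyte-like cells were not told apart from free RNA. The effect was higher in stellate-like than in hepatocyte-like cells for Gpc3, by 0.48 (adjusted p = 0.0498). Within the stellate-like class, Gpc3 had 0.10 in the cluster of fibroblast genes and -0.24 in the rest, neither of them called. Its rise in that class cannot be told apart from the change of mixture given above. The effect was lower than in hepatocyte-like cells for Alb (-0.89, adjusted p = 0.0234), Afp (-0.97, adjusted p = 0.00396) and Ttr (-1.52, adjusted p = 0.000696) in endothelial-like cells, and for Ttr in stellate-like (-1.16, adjusted p = 0.00111) and mesothelial-like cells (-1.47, adjusted p = 0.00663).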

How the results depend on the processing

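Of the values recomputed under alternatives other than leaving out a mouse, 318 kept direction and side of the threshold, 26 became called, 18 lost the call, 5 counts moved and 29 changed sign. The cause was not tested unless the setting itself gives it. The single clusters and the shallow cluster were added after seeing the data, as were all alternatives within clusters and in mesothelial-like cells.

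In hepatocyte-like sums, the log2 fold change of Afp was called without a filter (0.89), with the replicate block (0.87), with the Y-linked covariate (1.27) and in the joint voom model (0.94), and it was -0.064 in cluster 42. H19 lost its call without TMM factors (0.14), without doublets (0.22) and in clusters 20 (0.43), 42 (0.48) and 9 (0.36). Gpc3 lost it with DESeq2 (0.32), a mean of at least 50 UMIs (0.21), doublets left out (0.11), cells of at least 1000 UMIs (0.31), resolution 1 (0.20) and the shallow cluster (0.25), and was -0.029 without TMM factors. Alb was called without TMM factors (-0.65), at 50 UMIs (-0.41), without doublets (-0.55), at resolution 1 (-0.40) and by joint voom (-0.26), and was 0.0065 in cluster 7. Ttr changed sign without TMM factors (-0.25), at 50 UMIs (-0.0055), at no more than 10% mitochondrial UMIs (-0.077), without doublets (-0.082) and in clusters 20 (-0.25), 42 (-0.62), 7 (-0.26) and 9 (-0.37). The 6405 genes called became 4169 at 50 UMIs, and 356, 285, 798 and 613 in clusters 20, 42, 7 and 9, where fewer genes were tested in fewer cells.

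Within clusters, the Y-linked covariate gave Afp 1.32 in cluster 20 and 0.99 in cluster 9, both called, and 0.28 in cluster 42. Alb in cluster 7 was -0.0041 with the replicate block, -0.0080 with DESeq2, -0.12 without TMM factors, -0.0033 with the covariate and -0.15 without doublets. Ttr was called without TMM factors in clusters 7 (-0.38) and 9 (-0.46), and with the block in cluster 9 (-0.41). In stellate-like cells H19 was called with DESeq2 (0.73), without a filter (0.72), with the replicate block (0.78) and by joint voom (1.03), and Dlk1 by joint voom (0.96).

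Among ratios, Afp to Alb passed without doublets (1.31) and by the exact Mann-Whitney test (1.17), and Afp to Ttr in cluster 9 (1.16). With the replicate block, whose smallest p is 0.0312, H19 to Alb (0.81), H19 to Ttr (0.40), Gpc3 to Alb (0.64) and Ttr to Alb (0.40) did not pass. After BH over 9 ratios, a p at that floor passes only if most of the 9 reach it, so this loss of call decides nothing. H19 to Ttr did not pass without doublets (0.31), nor Gpc3 to Alb in cluster 42 (0.80), nor Ttr to Alb at no more than 10% mitochondrial UMIs (0.081). Gpc3 to Ttr passed at that limit (0.59) and in clusters 7 (1.25), 9 (1.08) and 20 (1.10). Ttr to Alb changed sign in clusters 7 (-0.27), 9 (-0.11), 20 (-0.21) and 42 (-0.14), and Dlk1 to Alb without doublets (0.44). The difference in the share of cells changed sign for Dlk1 without doublets (0.00962 percentage points), and for Gpc3 at 500 UMIs (1.28), at the mitochondrial limit (0.998) and in clusters 7 (12.6), 9 (2.61), 20 (2.48) and 42 (0.595). Replicate numbers did not pair the mice: same-numbered mice correlated at -0.0879 to 0.20, and 2 of 6 matched their own number best.

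Leaving out each mouse in turn gave these ranges. In cluster 20 they were Afp 0.43 to 1.29, Alb -0.13 to 0.034, Gpc3 0.77 to 0.99, H19 0.35 to 0.55 and Ttr -0.40 to -0.16. In cluster 42 they were Afp -0.30 to 0.14, Alb -0.64 to -0.21, H19 0.41 to 0.61 and Ttr -0.71 to -0.57. In cluster 7 they were Afp -0.087 to 1.05, Alb -0.052 to 0.067, Gpc3 0.89 to 1.09, H19 0.77 to 0.94 and Ttr -0.36 to -0.19. In cluster 9 they were Afp 0.42 to 1.16, Alb -0.32 to -0.16, Gpc3 0.57 to 0.80, H19 0.30 to 0.47 and Ttr -0.48 to -0.30. In mesothelial-like sums they were Dlk1 -0.37 to -0.20, Gpc3 0.057 to 0.20 and H19 0.13 to 0.56. In endothelial-like sums they were Dlk1 0.25 to 0.83, Gpc3 0.007 to 0.35 and H19 0.17 to 0.64. In stellate-like sums they were Dlk1 0.47 to 1.08, Gpc3 0.75 to 1.03 and H19 0.55 to 1.00. The number of genes called ran from 5891 to 6361. In hepatocyte-like sums they were Afp 0.37 to 1.38, Alb -0.37 to -0.19, Gpc3 0.27 to 0.46, H19 0.42 to 0.61 and Ttr -0.016 to 0.22. For the ratios they were Afp to Alb 0.94 to 1.47, Afp to Ttr 0.57 to 1.07, Dlk1 to Alb -0.79 to -0.067, Dlk1 to Ttr -1.20 to -0.48, Gpc3 to Alb 0.53 to 0.70, Gpc3 to Ttr 0.15 to 0.29, H19 to Alb 0.73 to 0.88, H19 to Ttr 0.35 to 0.46 and Ttr to Alb 0.35 to 0.49. For the shares in percentage points they were Afp -1.1 to 7.79, Dlk1 -0.117 to -0.0717, Gpc3 -1.38 to -0.0483 and H19 1.6 to 4.83.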
